A study of Homo sapiens with 6 samples.

Results

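The transcripts described here encode 32 human tRNA modification enzymes and their partner proteins, chosen by gene symbol from a fixed list of names. The tables of the series together named 9754 genes by identifier. Of the 32, 26 had at least 1 line in the table of N6-methyladenosine (m6A) peaks, and 1, TRMT10A, had clusters in the crosslinking and immunoprecipitation (CLIP) tables. The other 5 were in none of the tables. All material came from HEK293T, a human cell line derived from embryonic kidney, transfected with siRNA. The groups were TRMT10A knockdown and control knockdown, each with 1 library of m6A-immunoprecipitated RNA and 1 of input RNA, and TRMT10A CLIP with 2 replicates. The CLIP samples also carry an siRNA label that reads TRMT10A, without saying whether the protein was depleted or expressed from an added construct. Symbols and gene identifiers gave the same 26 members in the m6A table.

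A tRNA carries many modified bases, placed by enzymes that each recognise a few positions. Changes near the anticodon tune decoding and reading frame, and changes in the body of the molecule stabilise its fold. The enzymes are made from ordinary messenger RNAs, and those mRNAs can themselves carry m6A, the most abundant internal modification of mRNA. m6A is written mainly by the METTL3 and METTL14 complex and is often found near stop codons. TRMT10A, the protein studied, is a guanosine methyltransferase of cytoplasmic tRNAs, so the other enzymes are its functional neighbours.

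The m6A table held 26475 peaks on 9279 genes, and gave no read counts, so the depth behind the peaks is unknown. A peak is a stretch of a transcript that the authors listed in their comparison of TRMT10A knockdown with control knockdown. Which arm a given peak was called in cannot be read from the gene columns, because the ratio and call columns of the deposited table are sorted apart from them. The CLIP tables held 342690 conversion events in 1675 clusters for replicate 1 and 496030 events in 2183 clusters for replicate 2. A conversion event is the tables' unit of crosslinking signal, and every cluster had at least 2. No expression values were given, so the knockdown has no check in these data.

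Most of the enzyme transcripts carried m6A peaks. Of the 32 members, 26 (81.2%) had at least 1 peak, compared with 44.7% of 20056 protein-coding genes. A single peak was listed for 9 members, 2 peaks for 9, 3 peaks for 5 and 4 peaks for 3, making 54 peaks in all. At least 2 peaks were listed for 17 members (53.1%), compared with 31.9% of protein-coding genes. The median was 2 peaks per member with a peak, which was also the median over all genes of the table. The protein-coding background includes genes that HEK293T cells do not express, and no expression values were in the tables, so that the part of expression in this gap was not tested.

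**Figure D1:**
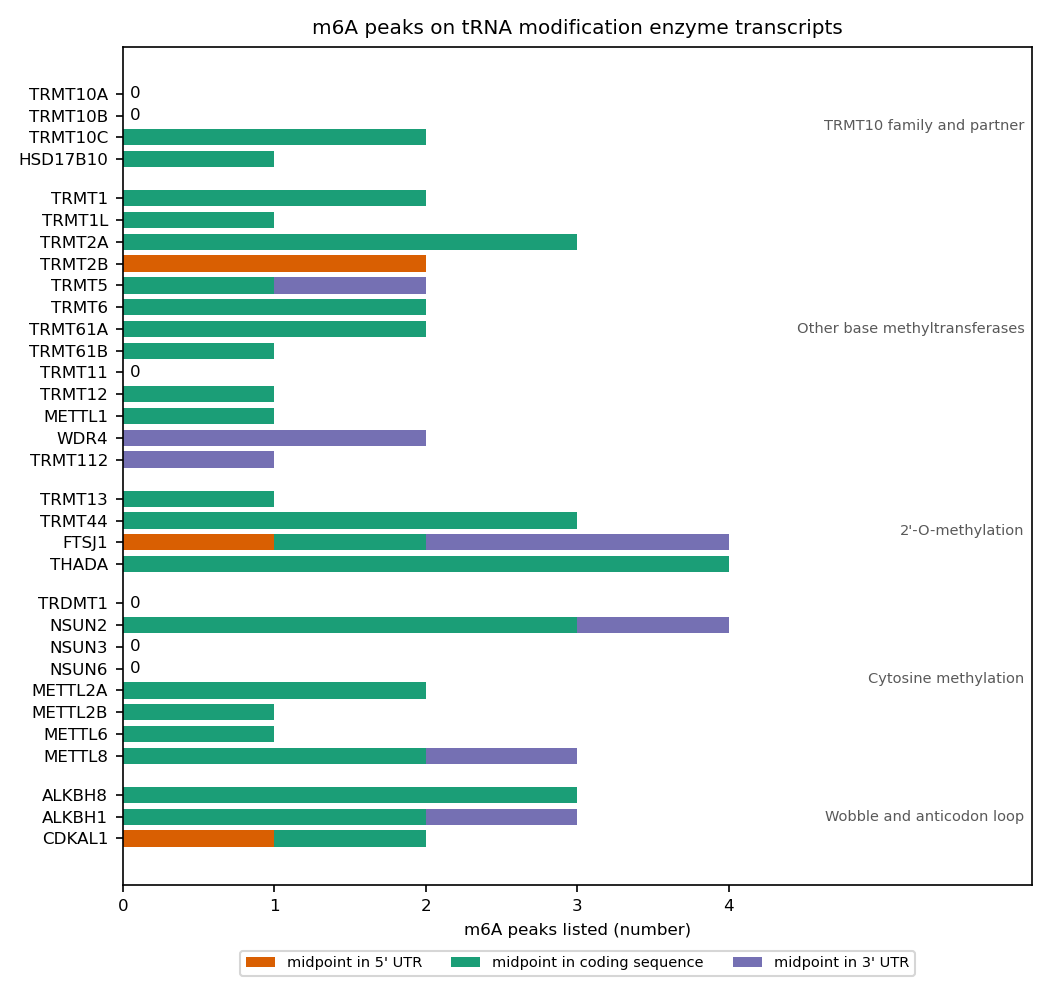
Number of m6A peaks listed for each of the 32 transcripts (horizontal axis), grouped by the kind of modification, with colours for the region that holds the midpoint of the peak. FTSJ1, THADA and NSUN2 reached 4 peaks, and 6 transcripts had 0.

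The TRMT10 family was split. TRMT10C, the methyltransferase subunit of mitochondrial RNase P, had 2 peaks, at transcript positions 658 to 861 and 1264 to 1435, and the second spanned the stop codon. HSD17B10, a mitochondrial dehydrogenase that binds TRMT10C in the same complex, had 1 peak at positions 105 to 283, early in its coding sequence. TRMT10A and TRMT10B had none. All 3 peaks of this group lay in coding sequence, and neither transcript with peaks held the sequence GGACT anywhere. This motif, with U for T in RNA, is a core sequence favoured by the METTL3 complex.

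Of the 13 members grouped as other base methyltransferases and their partners, 12 had peaks, 20 in all. By midpoint, 14 of these peaks were coding, 2 in the 5' UTR and 4 in the 3' UTR. TRMT2A, which makes 5-methyluridine in cytoplasmic tRNAs, had the most, with 3 peaks at 383 to 565, 731 to 927 and 939 to 1050. All 3 lay in the first part of its coding sequence, and none held GGACT. TRMT2B, its mitochondrial counterpart, had 2 peaks, the first at 100 to 257 in the 5' UTR. The second, at 675 to 870, reached across the start codon. Its midpoint lay 1.5 bases before the coding start, so its region is uncertain. TRMT1, which makes dimethylguanosine, had 2 coding peaks with 1 GGACT in each, and its paralogue TRMT1L had 1 peak with 2 motifs.

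The subunits of methyltransferase complexes did not share 1 pattern of peaks. TRMT6 and TRMT61A, which together make 1-methyladenosine, had 2 peaks each, all with midpoints in coding sequence. The first TRMT6 peak, at 91 to 248, reached across the start codon, so its region is uncertain. The second TRMT61A peak, at 870 to 1050, spanned the stop codon, and the second TRMT6 peak, at 962 to 1149, lay in mid-coding sequence. METTL1, the catalytic subunit for 7-methylguanosine, had 1 coding peak at 831 to 940. A processed pseudogene held 85.2% of the 50-base words of that peak, so its reads may be shared. WDR4, the partner of METTL1, had 2 peaks at 1498 to 1693 and 1884 to 2090, both in the 3' UTR. TRMT112, an activator of several methyltransferases, had 1 peak at 571 to 670 in the 3' UTR, ending beyond the 659 bases of the matched transcript. TRMT11, a catalytic partner of TRMT112, had no peak.

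The remaining members grouped with the base methyltransferases had 1 or 2 peaks. TRMT5, which methylates the guanosine beside the anticodon, had a coding peak at 1171 to 1330 and a peak at 4333 to 4492, deep in its 3' UTR of 3658 bases. TRMT61B, a mitochondrial adenosine methyltransferase, had 1 peak of 290 bases, the widest among the 54, with 2 GGACT motifs. TRMT12, an enzyme of wybutosine synthesis, had 1 coding peak at 565 to 724.

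All 4 members tied to 2'-O-methylation had peaks, 12 in all, which was the highest number per gene (median 3.5). FTSJ1 methylates riboses in the anticodon loop, and mutations in it cause X-linked intellectual disability. Its 4 peaks ran along the whole transcript of 1986 bases, at 215 to 370 in the 5' UTR, 691 to 881 in the coding sequence, and 1421 to 1523 and 1563 to 1747 in the 3' UTR. At 2.01 peaks per kilobase it had the densest peaks of the members. THADA is the human counterpart of the yeast protein that assists the FTSJ1 homologue. Its 4 peaks were at 1536 to 1703, 5691 to 5790, 5879 to 6051 and 6052 to 6241, and the last 3 crowded into the end of a coding sequence of 5862 bases. TRMT44 had 3 coding peaks, at 405 to 550, 1681 to 1790 and 2112 to 2307, the last across the stop codon. The matched TRMT44 transcript has no annotated 5' UTR, so its places are uncertain. TRMT13, which methylates the acceptor stem, had 1 peak at 42 to 160.

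Of the 8 cytosine methyltransferases, 5 carried peaks. NSUN2, the main maker of 5-methylcytosine in cytoplasmic tRNAs, had 4 peaks. They lay at 403 to 588, 1691 to 1859 and 2448 to 2566 in the coding sequence and at 2567 to 2787, where the peak abutted the third, spanned the stop codon and had its midpoint in the 3' UTR. NSUN3, which acts on mitochondrial tRNA, NSUN6, which acts on the acceptor stem, and TRDMT1, also known as DNMT2, had none.

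Enzymes that make 3-methylcytosine all had peaks. METTL8 had 3, at 539 to 727, at 1180 to 1416 across the stop codon, and at 4176 to 4340 in a 3' UTR of 6767 bases. METTL2A had 2 coding peaks, the first 268 bases wide and the second at 971 to 1070, METTL2B had 1 at 106 to 274, and METTL6 had 1 at 271 to 396. METTL2A and METTL2B are near-identical copies. Of the 50-base words in their peaks, 85.4%, 78.4% and 91.7% occurred in transcripts of other genes, in each case including the other copy, so these 3 peaks cannot be assigned to 1 gene with certainty.

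The wobble and anticodon loop enzymes all had peaks, 8 in all. ALKBH8, which completes a wobble uridine modification, had 3 coding peaks at 359 to 520, 1719 to 1880 and 1982 to 2146, the last ending within the stop codon. ALKBH1, a dioxygenase that oxidises and demethylates tRNA bases, had 3 peaks. They lay at 107 to 278 and 943 to 1150 in the coding sequence and at 1231 to 1399 in the 3' UTR. CDKAL1, a methylthiotransferase whose gene is linked to risk of type 2 diabetes, had 1 peak at 11 to 160 in the 5' UTR and 1 at 1670 to 1870 near the coding end.

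**Figure D2:**
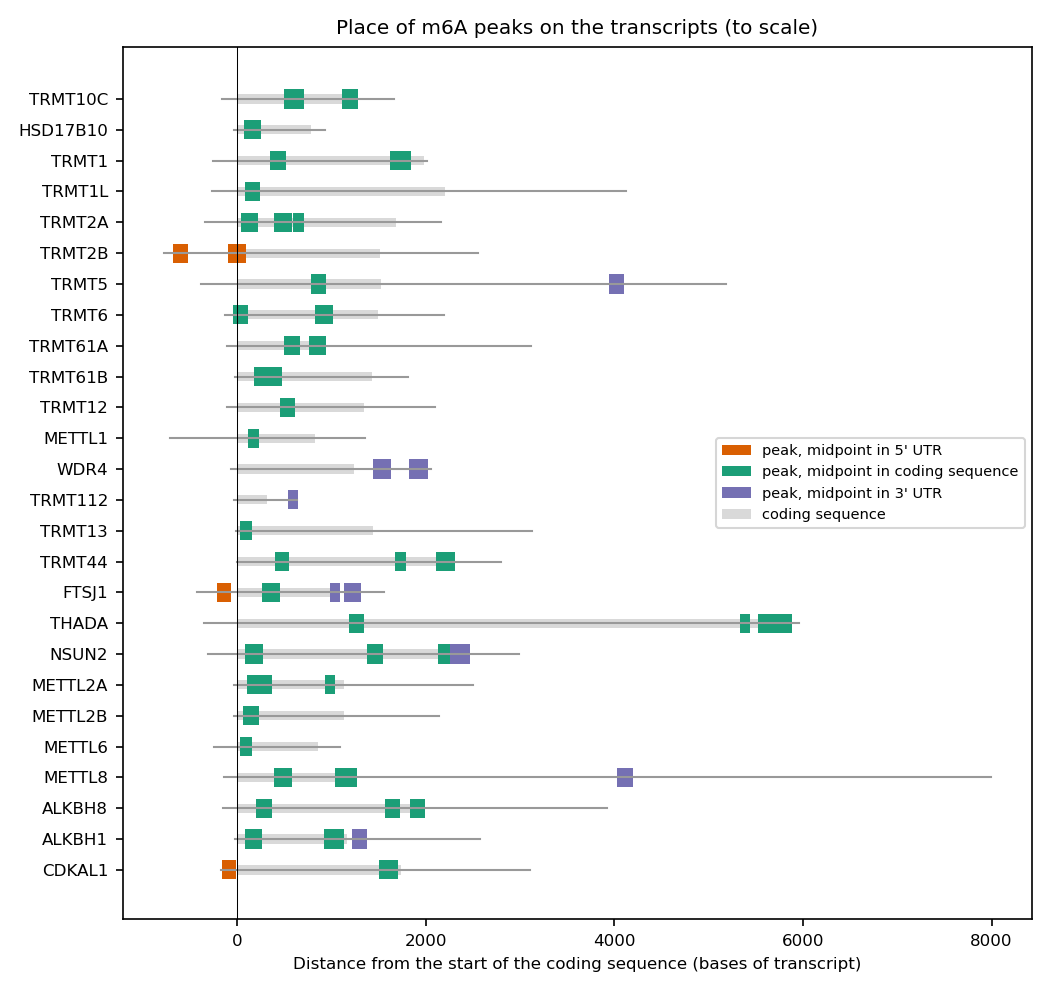
Place of the 54 m6A peaks on the 26 transcripts that carried them, drawn to scale with the horizontal axis in bases from the start of the coding sequence. Grey boxes are coding sequence, thin lines UTRs, and coloured boxes peaks. Peaks sit at both ends of the coding sequence and within it, and TRMT5 and METTL8 each have 1 peak far into the 3' UTR.

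By the midpoint of the peak, 41 of the 54 peaks (75.9%) lay in coding sequence, compared with 69.4% of 25096 peaks on coding transcripts over the whole table. Another 9 (16.7%) lay in 3' UTRs, compared with 21.5%, and 4 (7.41%) in 5' UTRs, compared with 9.08%. These shares were close to those of the table as a whole. Coding sequence made up 52.7% of the length of the 26 transcripts, and 48.2% over all 8682 transcripts with peaks. A midpoint within 200 bases of the coding end was found for 13 peaks (24.1%) on 11 members, compared with 17.7% of all peaks. A midpoint within 200 bases of the coding start was found for 13 peaks (24.1%), compared with 18.1%. At least 1 base of the stop codon was covered by 7 peaks (13%), compared with 9.72% of all peaks, those of TRMT10C, TRMT61A, TRMT44, THADA, NSUN2, METTL8 and ALKBH8. Peaks were 100 to 290 bases wide with a median of 169.5, compared with a median of 175 in the whole table. Transcript numbering limits these places. Where patterns of at least 3 motifs could be traced, the table and the annotated transcripts used the same numbering in 31.4% of 118 cases and differed by at most 100 bases in 82.2%.

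**Figure D3:**
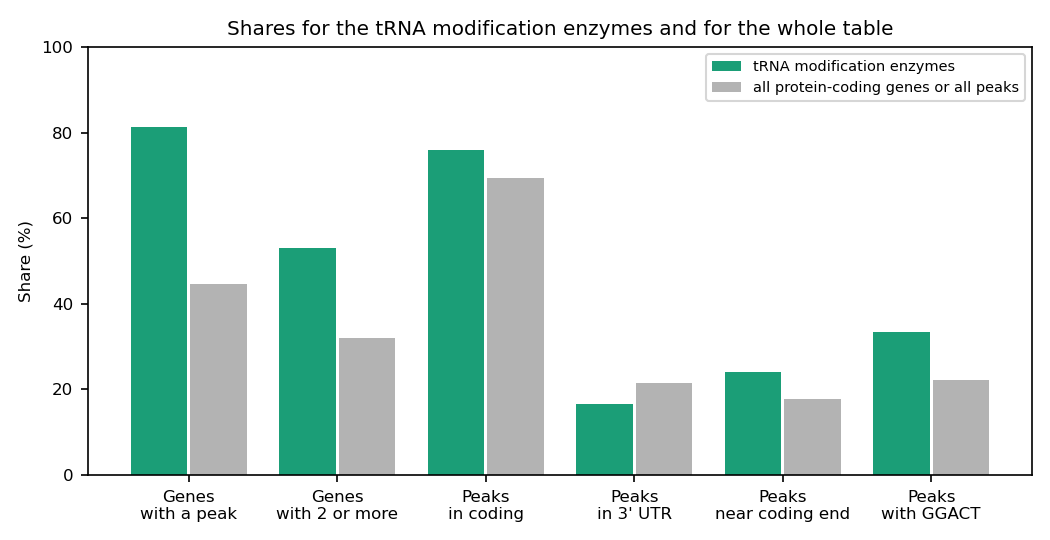
Share in percent (vertical axis) of the 32 enzyme genes or their 54 peaks (green, left) and of all protein-coding genes or all peaks on coding transcripts (grey, right) with the property named under each pair. The widest gap is in genes with a peak, 81.2% and 44.7%, whereas the shares of peaks in coding sequence lie closer, 75.9% and 69.4%.

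GGACT was found in 18 of the 54 peaks (33.3%, 95% Wilson interval 22.2 to 46.6) on 13 members, with 23 motifs in all. Over all peaks on coding transcripts the share was 22.3%, which lies within that interval. Where transcript numbering differs, the motifs counted in a peak may differ too. Exact matches were searched on the transcript strand alone. The wider consensus known as DRACH was found in 53 peaks (98.1%) and in 93.0% of all peaks, and the exception among the members was the first TRMT44 peak. The 4 transcripts with peaks and no GGACT at any position were TRMT10C, HSD17B10, TRMT61A and TRMT112.

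CDKAL1 and THADA were the members whose motif patterns tied a ratio of the authors' deposited table to a peak. For both, the positions of at least 2 GGACU motifs listed beside a ratio matched the motifs of 1 peak and no other, which also fixes their transcript numbering. Joins of this kind numbered 288 over the whole table, while deliberately shifted positions gave 4.70 joins on average, an expected false share of 1.63%. The sequences below are the motifs of these peaks with 10 bases on either side, from GENCODE release 29 transcripts (hg38), written 5′ to 3′ with GGACT in capitals. The first 3 lie in the CDKAL1 5' UTR peak, chr6:20534467-20535392 on the plus strand in exons 1 and 2, and the 25 bases shown for the second motif cross the exon junction. The fourth lies in THADA peak 2, chr2:43232741-43232840 on the minus strand in exon 37. The last 2 lie in THADA peak 4, chr2:43230921-43231110 in exon 38.
CDKAL1 peak 1, motif 1: ttctcactttGGACTggtttttact
CDKAL1 peak 1, motif 2: cccgacttctGGACTcatctttcaa
CDKAL1 peak 1, motif 3: tctttcaagaGGACTttagactaat
THADA peak 2: gttggcccctGGACTgcccatcctg
THADA peak 4, motif 1: caagaggaaaGGACTttggcttgct
THADA peak 4, motif 2: tcagtgtttgGGACTcttatgcaga

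The CDKAL1 5' UTR peak, with 3 motifs in 150 bases, was called unique, a label the table does not explain, in the authors' deposited table at a log2 ratio of 2.27 for TRMT10A knockdown over control knockdown. Of all ratios in the table, 1.02% were higher. The THADA peak across the stop codon, with 2 motifs in 190 bases, was called common in the authors' deposited table, at a log2 ratio of -1.36, and 1.73% of ratios were lower. The THADA peak at 5691 to 5790 held 1 motif, and the single ratio listed with that position alone was 0.99 in the authors' deposited table, called unique. On transcripts with matched numbering, 99.0% of 202 single-motif peaks had their position listed, compared with 54.3% after shifting, so this join is less certain than the other 2. Over the whole table single-motif joins had an expected false share of 66.6%. The median of all log2 ratios was 0.17. With 1 library per arm none of these ratios has a replicate check, and no test was possible. No ratio could be tied to the other 51 peaks. The second CDKAL1 peak had 1 motif, but 5 ratio lines carried the same position.

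TRMT10A was the exception in the CLIP tables. It was the 1 member listed in both replicates (3.12% of members), compared with 1.44% of protein-coding genes. Replicate 1 listed 2.18% of protein-coding genes and replicate 2 listed 3.37%, genes in both included, so 1 of 32 is near the background. The other 31 members had no cluster in either replicate, under their own name or anywhere inside their gene bodies, on either strand. The tables list called clusters alone, so absence means only that no cluster was called at this depth, and events outside clusters are not seen.

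The TRMT10A transcript had 32 events in 6 clusters in replicate 1 and 76 events in 9 clusters in replicate 2. By events it ranked 11 among 288 mRNA genes with exon clusters in replicate 1 and 5 among 494 in replicate 2. It held 1.67% and 2.36% of all mRNA exon events in replicates 1 and 2. The matched transcript has 8 exons and 3694 bases, of which 313 are 5' UTR, 1020 coding (27.6%) and 2361 3' UTR. All clusters lay between coding bases 136 and 1023, counted from the A of the start codon as 1. They covered 165 coding bases in replicate 1 and 295 in replicate 2, and in both replicates 3 bases outside the coding sequence. Neither replicate had a cluster in the 5' UTR or further into the 3' UTR than those 3 bases.

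One cluster held most of the signal, at the same coordinates in both replicates. It had 21 of 32 events in replicate 1 (65.6%, 95% Wilson interval 48.3 to 79.6) and 50 of 76 in replicate 2 (65.8%, 54.6 to 75.5). These intervals treat conversion events as independent, which was not tested. It spans 15 bases at chr4:99549085-99549099 on the minus strand in exon 8. The file places it in the 3' UTR, whereas in the matched transcript it holds the last 12 coding bases, stop codon included, and the first 3 of the 3' UTR. Its letters, with the stop codon in capitals, are as follows.
TRMT10A largest cluster: ctgccacacTAAtgt

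The other 5 clusters of replicate 1 had 2 or 3 events each. The other 8 clusters of replicate 2 had 2 to 7 events. The largest of these, with 7 events at coding bases 558 to 618 in exon 6, shared 4 bases with a cluster of 2 events in replicate 1. In exon 3, clusters at coding bases 274 to 310 and 312 to 343 of replicate 1, with 2 events each, overlapped clusters of 5 and 2 events in replicate 2. In all, 4 of 6 clusters of replicate 1 (66.7%) and 4 of 9 of replicate 2 (44.4%) shared at least 1 base, and these held 27 and 64 events. The stop codon cluster apart, single sites on this transcript therefore rest on few events.

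**Figure D4:**
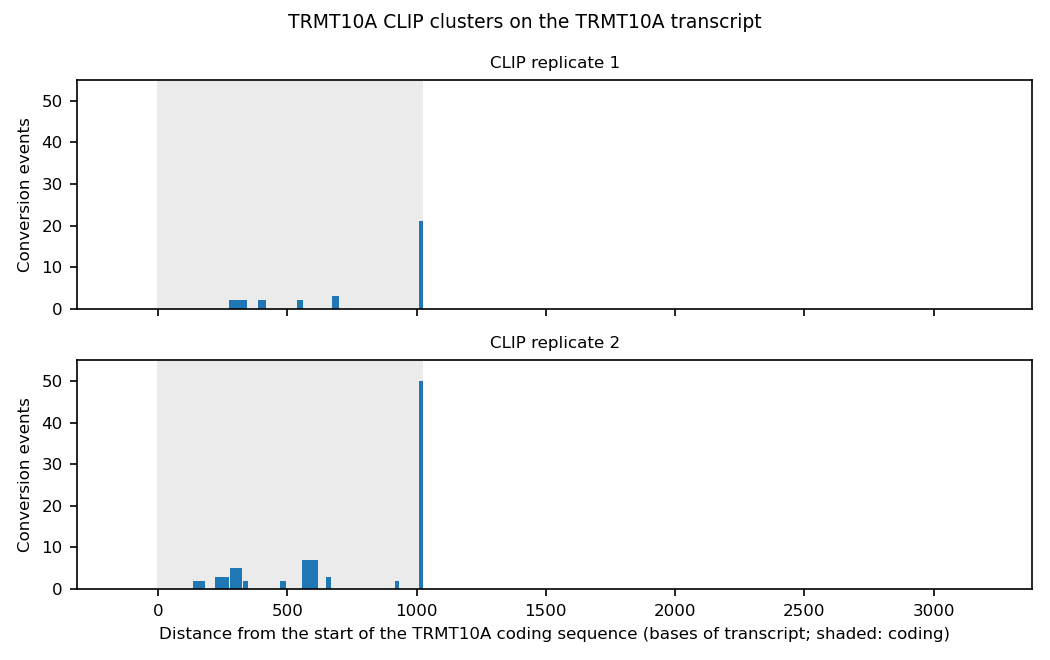
Conversion events (vertical axis) of each CLIP cluster along the TRMT10A transcript in replicates 1 and 2, in bases from the start of the coding sequence, with the coding sequence shaded. The cluster at the stop codon stands at 21 and 50 events, the others at 2 to 7, and the 3' UTR to the right is empty.

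Among mRNA genes with at least 6 exon clusters, TRMT10A had the highest share of its events in 1 cluster in both replicates. There were 6 such genes in replicate 1, where the other shares ran from 22.2% for USP22 to 48.4% for MIF. There were 19 in replicate 2, from 11.4% for EEF2 to 53.7% for GAPDH. By the file's locations, 5 of the 6 genes and 13 of the 19, TRMT10A included, had at most 1 cluster in the 3' UTR. The 3' UTR lengths of the other genes were not compared, so whether this trait is particular to TRMT10A was not tested. The labels do not say if an added TRMT10A coding sequence was present in the CLIP cells, and its part in these clusters was not tested.

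A second list held 59 other tRNA modification genes, for pseudouridine, dihydrouridine, deamination, wobble uridine and other changes. Of these, 46 (78%) had m6A peaks, 99 in all, a share close to the 81.2% of the 32 members. As examples, not in order of rank, NAT10, an RNA acetyltransferase, had 6 peaks, and TRUB1, a pseudouridine synthase, had 4, as did THUMPD1, the tRNA partner of NAT10. The t6A genes had 7 peaks over 6 of 7 members, all 5 wybutosine genes had peaks, and 1 of 3 deaminase genes had. THUMPD3 was the 1 gene of the 59 with CLIP signal, an intron cluster of 14 events in replicate 1 and 26 in replicate 2. Both replicates listed 1.44% of protein-coding genes, so 1 of 59 is near the background. It lay at chr3:9374344-9374364 in replicate 1, where the main GENCODE gene annotation lists THUMPD3 and its antisense transcript. Nuclear tRNA genes were not searched for separately, so whether one lies at this place is not known from this lookup.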

How the data were processed

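The authors deposited 2 CLIP tables with counts of conversion events per cluster, not normalized, and 1 m6A table with log2 ratios (TRMT10A knockdown over control knockdown), per the file headers. The submitters' processing notes name hg38, TopHat2 and Cuffdiff with no role. For callers, thresholds and the ratio's normalization: not given in the sources used here. Members were matched by symbol, and checked by gene identifier. Members and lists were chosen with earlier results of these data known. Peak positions were placed on the GENCODE release 29 transcript matched to each line's RefSeq accession (96.2% of 26475 peaks), with the stop codon counted as coding. For members without peaks the longest matched coding transcript was used. Biotypes came from RefSeq (GRCh38.p14). A cluster listed for several transcripts of a gene was counted once, and cluster coordinates were read as counted from 1. The gene-naming rule took members with CLIP clusters and the 8 with the most peaks. No test was planned or possible: each arm had 1 library and CLIP had no control. CLIP replicates may be technical. Wilson intervals (SciPy 1.17.1, Python 3.11.15) cover counting error only. The placing code was run on simulated positions drawn from the same coding bounds, which cannot test the transcript numbering of the table. The values of 1 gene of the second list are not reported here.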

Additional observations from a re-analysis of the deposited data

How the results depend on the processing

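Matching by gene identifier left 26 members with peaks, and 17 had at least 2. Merging peaks within 100 bases gave 47 peaks in place of 54. Placing peaks by the end nearest the coding end gave 38 coding, 13 3' UTR and 3 5' UTR peaks. Moving all positions by 100 bases, an alternative chosen after seeing the data because transcript numbering differs, gave 7 (lower) and 2 (higher) 5' UTR peaks, 40 and 37 coding peaks, and 7 and 15 3' UTR peaks. DRACH in place of GGACT gave 53 peaks with a motif. Widening by 50 bases gave 24 peaks with GGACT (44.4%), compared with 30.8% of all peaks widened in the same way. TRMT10A was the 1 member in both CLIP replicates with at least 5 events per cluster and with exon clusters alone. It was also the 1 member listed when either replicate was left out (range 1 to 1). Requiring an overlap of at least 50% of the shorter cluster left 3 shared clusters in both replicates. No paired analysis was possible because the CLIP replicates form 1 group and the m6A arms have 1 library each.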

Other observations

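Having no peak did not go with having no GGACT. All 6 transcripts without a peak held the motif, 3 times in TRMT10B, 2 times in TRMT10A, NSUN3 and NSUN6, and 1 time in TRMT11 and TRDMT1. Their density was 0.664 motifs per kilobase, compared with 1.04 over the 26 members with peaks and 0.979 over all transcripts with peaks. Their median length was 2785 bases, compared with 2517.5 for members with peaks. The longest matched transcript was taken for members without peaks and the listed transcript for the others. The lengths and densities are therefore not compared on like terms.

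The share of members with a peak was above that of all genes in each class of transcript length. Under 2000 bases, 6 of 7 members had a peak, compared with 31.5% of genes, from 2000 to under 3000 bases 10 of 12, compared with 47.4%, and from 3000 bases 10 of 13, compared with 55%. These are counts of few genes and were not tested. Genes with a peak were placed in a class by the listed transcript and genes without one by their longest matched transcript. The classes are therefore not formed on like terms. Genes were matched to peaks by symbol here, so a gene listed under another symbol counts as having no peak.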
